A study of Homo sapiens with 8 samples.

Results

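The genes described here mark the lung epithelial lineage, in 2 human lung adenocarcinoma lines. They are the transcription factor genes NKX2-1, FOXA1 and FOXA2, the type II pneumocyte genes ABCA3, SFTPB, SFTPC, NAPSA, SLC34A2 and LAMP3, and the type I pneumocyte gene AGER. They were taken as a fixed list by name, 10 of 24630 gene rows in the count table, with no rule on a measured value. Earlier results of these data were known when the list was chosen. PC9 is an EGFR-mutant line that is sensitive to the EGFR inhibitor gefitinib. PC9R was obtained from PC9 by gefitinib exposure for 1 to 2 weeks, and both lines were used at passages 8 to 12, per the labels. Each line had 2 RNA libraries, 1 list of DNase hypersensitive sites (DHS, open chromatin) and 1 list of H3K4me2 peaks (a histone mark of promoters and enhancers). Whether RNA of a line was taken from separate cultures is not stated, and p-values therefore measure a spread of libraries that may be technical. Only PC9R had the drug, so drug and line cannot be told apart.

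NKX2-1 specifies the lung epithelium and remains on in type II cells and in many lung adenocarcinomas. It acts with the forkhead factors FOXA1 and FOXA2, which open chromatin, on genes for surfactant and lamellar bodies. Type II cells make and recycle surfactant, while thin type I cells form the gas exchange surface.

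Between the lines, LAMP3 rose 3.43-fold and ABCA3 fell 1.99-fold from PC9 to PC9R in a model with library number (edgeR adjusted p = 0.00187 and 0.0137), and neither passed without it (0.392 and 0.999). FOXA1 was the most abundant of the 4 genes that have a single RefSeq accession. The H3K4me2 coverage around its start site in PC9R was 0.252 of that in PC9. This ratio had a median of 0.623 over genes covered in both lines, and was 0.249 for SLC34A2. NKX2-1, FOXA2, SFTPC and SLC34A2 had at most 3 counts over the 4 libraries. All 4 have several accessions, which limits what a low count shows. Each had an H3K4me2 peak within 1 kb of an annotated start site in both lines, as 70.2% of coding genes did, and near NKX2-1 and SFTPC these peaks also cover start sites of SFTA3 and LGI3. SFTPB had H3K4me2 at its start site in PC9R only.

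The promoters that carry these chromatin results are shown first. Windows run from 250 bases before to 50 bases after a RefSeq start site, 5′ to 3′ on the strand of the gene, and are from RefSeq on GRCh38.p14. Of the 10 genes, 7 were in that table, and their 11 windows each matched 1 place of the gene's chromosome in GRCh37, the build used for peaks. Capitals mark matches to 5 motifs searched on both strands: the forkhead motifs TGTTTAC and TGTTTGC, the NKX2 motifs CTTGAG and CACTTG, which can overlap each other, and the AP-1 motif TGANTCA. Where a gene has several windows, the ones shown were chosen after the peaks and matches were seen. Overlap with a peak was taken as 1 base or more. The NKX2-1 window overlaps H3K4me2 peaks of both lines, the FOXA1 window those of PC9 only, and the SFTPB window those of PC9R only. The upstream SLC34A2 window overlaps H3K4me2 of both lines, and the downstream one that of PC9 only. That PC9 peak ends at chr4:25657876, and the downstream window spans chr4:25657836-25658135 in GRCh37, so only its 5′ end is covered. Neither of its marked matches lies under the peak. Marked matches can lie outside the peaks in other windows too.
NKX2-1, chr14:36519507-36519806, minus strand: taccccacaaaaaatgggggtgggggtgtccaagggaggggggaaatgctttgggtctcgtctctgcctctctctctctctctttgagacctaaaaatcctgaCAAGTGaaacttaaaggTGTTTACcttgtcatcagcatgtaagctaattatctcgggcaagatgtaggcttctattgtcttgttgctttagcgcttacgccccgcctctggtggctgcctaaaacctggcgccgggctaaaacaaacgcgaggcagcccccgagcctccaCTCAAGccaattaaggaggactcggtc
FOXA1, chr14:37595200-37595499, minus strand: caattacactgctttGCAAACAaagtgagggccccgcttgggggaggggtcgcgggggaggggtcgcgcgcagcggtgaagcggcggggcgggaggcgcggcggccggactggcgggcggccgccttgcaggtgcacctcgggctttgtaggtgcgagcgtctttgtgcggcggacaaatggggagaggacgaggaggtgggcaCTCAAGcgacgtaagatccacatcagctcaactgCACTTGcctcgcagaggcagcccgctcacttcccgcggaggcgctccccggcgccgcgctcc
SFTPB, chr2:85668150-85668449, minus strand: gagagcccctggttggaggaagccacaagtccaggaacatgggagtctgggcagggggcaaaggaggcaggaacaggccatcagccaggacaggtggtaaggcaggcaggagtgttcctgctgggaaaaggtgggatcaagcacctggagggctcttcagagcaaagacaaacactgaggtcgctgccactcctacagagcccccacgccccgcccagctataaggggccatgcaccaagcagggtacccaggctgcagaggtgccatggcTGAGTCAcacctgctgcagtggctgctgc
SLC34A2 upstream, chr4:25655601-25655900, plus strand: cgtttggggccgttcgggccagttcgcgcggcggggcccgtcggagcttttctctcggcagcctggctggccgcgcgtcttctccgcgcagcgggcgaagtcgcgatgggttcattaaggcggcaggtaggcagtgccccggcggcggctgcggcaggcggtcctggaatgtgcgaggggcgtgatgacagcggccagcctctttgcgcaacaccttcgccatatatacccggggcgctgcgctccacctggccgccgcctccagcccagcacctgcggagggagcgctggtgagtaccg
SLC34A2 downstream, chr4:25656214-25656513, plus strand: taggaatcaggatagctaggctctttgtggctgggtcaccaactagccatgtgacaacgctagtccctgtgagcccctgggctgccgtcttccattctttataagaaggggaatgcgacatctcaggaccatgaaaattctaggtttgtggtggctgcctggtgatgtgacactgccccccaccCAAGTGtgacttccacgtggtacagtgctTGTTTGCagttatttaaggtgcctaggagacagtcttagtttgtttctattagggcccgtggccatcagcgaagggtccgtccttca

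The NKX2-1 window held 1 TGTTTAC, 1 CACTTG and 1 CTTGAG match. The FOXA1 window held 1 match to TGTTTGC, 1 match to CTTGAG and 1 match to CACTTG. The downstream SLC34A2 window held 1 TGTTTGC and 1 CACTTG match, the upstream one held none, and the SFTPB window held only an AP-1 match, at position 272 counted from 1 at the 5′ end. Of the 11 windows 7 held a match, and the 4 without one were those of ABCA3, AGER, the canonical NAPSA start and the upstream SLC34A2 start. The other NKX2-1 window, at its canonical start, held 1 TGTTTGC match. Of all 35116 RefSeq windows of 300 bases, 3.42% held TGTTTAC, 3.89% TGTTTGC, 12.4% CTTGAG, 11.5% CACTTG and 7.71% TGANTCA. These shares are for single motifs. The share of all windows with a match to any of the motifs was not computed. The 7 of 11 windows therefore have no background to be read against. A match is a description of the letters, not a binding site.

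Open chromatin at the promoters of FOXA1 and ABCA3 in PC9 is shown next, from the GRCh37 genome on the minus strand, the strand of both genes. FOXA1 had 2 DHS peaks there and ABCA3 had 1. These 3 sequences held none of the 5 motifs and so carry no capitals. Among windows of the same lengths centred on all PC9 DHS peaks, the share with a given motif was 1.35% to 14.2%. The share without any of the motifs was not computed.
FOXA1, chr14:38064801-38065011: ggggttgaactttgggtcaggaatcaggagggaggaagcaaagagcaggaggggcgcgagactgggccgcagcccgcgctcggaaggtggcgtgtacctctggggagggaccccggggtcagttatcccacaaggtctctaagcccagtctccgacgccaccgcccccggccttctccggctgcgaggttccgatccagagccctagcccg
FOXA1, chr14:38065268-38065446: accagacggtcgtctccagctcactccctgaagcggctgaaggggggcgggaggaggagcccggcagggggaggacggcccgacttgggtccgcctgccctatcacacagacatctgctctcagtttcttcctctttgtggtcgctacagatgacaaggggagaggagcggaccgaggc
ABCA3, chr16:2390891-2391062: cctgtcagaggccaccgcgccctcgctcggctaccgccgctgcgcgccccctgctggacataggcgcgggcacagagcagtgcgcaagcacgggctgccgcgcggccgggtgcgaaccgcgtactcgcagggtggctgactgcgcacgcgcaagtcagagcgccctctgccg

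Expression is given as CPM, counts scaled to library size after TMM normalisation. The first libraries held 32515891 (PC9) and 32502455 (PC9R) counts, and the second ones 16013058 (PC9) and 16715426 (PC9R). The second libraries of both lines differed from the first in depth and moved together, with a correlation of 0.788 over genes between their second-minus-first log2 differences. Differences are therefore also given within the first and within the second libraries, and from a model with library number as a term. Across 12660 tested genes, 32 passed (0.253%, with 0.19% higher and 0.0632% lower in PC9R, by edgeR's quasi-likelihood test at an adjusted p under 0.05), and 2631 passed with library number in the model (20.8%). With 1 residual degree of freedom, the latter model borrows most of its spread from other genes. Of the 10 genes, 5 passed the filter on low counts. None of these 5 passed the main edgeR test, where 1, LAMP3, had an unadjusted p under 0.05, and none passed with DESeq2 or limma-voom. With library number in the model 1 was higher and 1 lower. For comparison, that model called 11.2% of all tested genes higher and 9.57% lower.

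How reads shared between transcripts were assigned limits 6 of the 10 genes. Counts were deposited per RefSeq accession, and NKX2-1, FOXA2 and SFTPB have 2 accessions each, SFTPC and SLC34A2 have 3 each, and AGER has 10. Genes with several accessions made up 33.3% of gene rows while 6.74% to 7.07% of a library's counts fell on them. Among genes with promoter H3K4me2 in both lines, at most 3 counts over the 4 libraries were found for 4.10% of 7146 genes with 1 accession and for 19.0% of 6314 genes with more. A low count of such a gene is therefore not read as low expression. FOXA1, ABCA3, NAPSA and LAMP3 have 1 accession each.

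**Figure D1:**
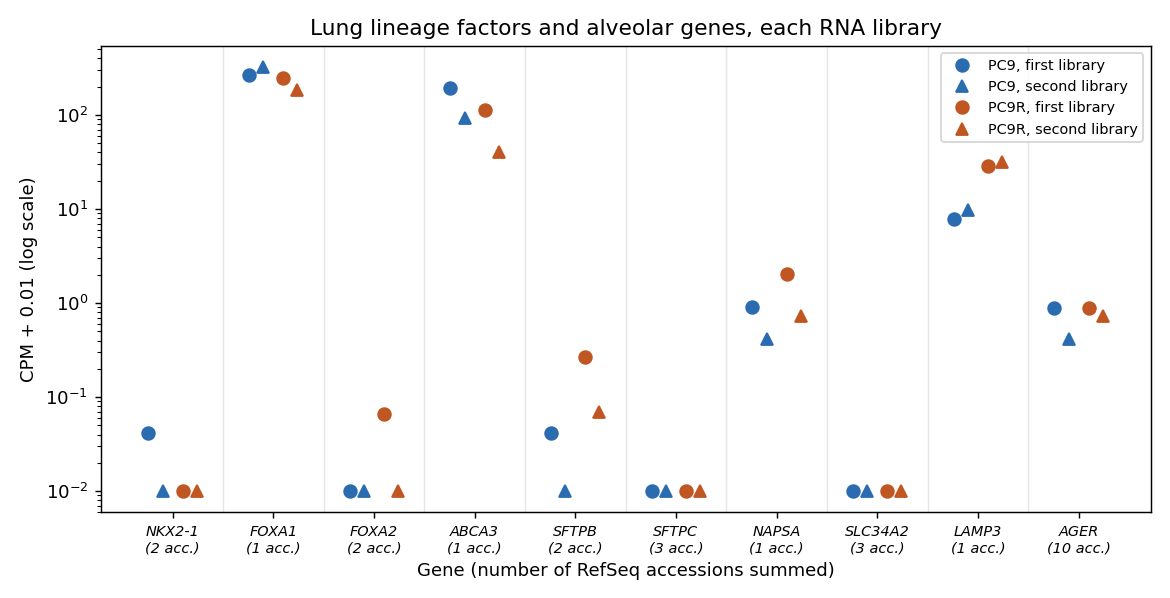
TMM-scaled CPM plus 0.01 (log axis) of the 10 genes in each of the 4 RNA libraries, with the number of RefSeq accessions under each gene; points are single libraries. LAMP3 lies at 7.90 and 9.88 CPM in PC9 and at 29.0 and 31.6 CPM in PC9R, while SFTPC and SLC34A2 are at 0 in all 4 libraries.

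Of the transcription factor genes, FOXA1, a pioneer factor gene of lung and other endoderm, was at 268 and 323 CPM in the first and second PC9 libraries and at 248 and 184 CPM in those of PC9R. Both PC9R libraries lay below both PC9 libraries, as was so for 14.9% of tested genes. The log2 fold change, PC9R minus PC9, was -0.46 (SE 0.51, edgeR adjusted p = 0.999), and it did not pass with library number in the model (-0.46, SE 0.22, edgeR adjusted p = 0.17). The difference was -0.12 in the first libraries and -0.82 in the second ones. NKX2-1 had 1 count in the first PC9 library and 0 in the others. FOXA2 had 2 counts in the first PC9R library and 0 in the others. A count of 0 allows up to 0.0854 to 0.2002 CPM, depending on the library, and this covers counting error only. With so few counts no fold was formed for either gene.

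Of the type II cell genes among the 10, LAMP3, which encodes a lysosomal and lamellar body membrane protein, was at 7.90 and 9.88 CPM in PC9 and at 29.0 and 31.6 CPM in PC9R. Both PC9R libraries lay above both PC9 libraries, as was so for 16.9% of tested genes. Means were 8.89 ± 1.40 CPM in PC9 and 30.3 ± 1.82 CPM in PC9R (SD, n = 2), with a log2 fold change of 1.77 (SE 0.59, edgeR adjusted p = 0.392). With library number in the model LAMP3 rose 3.43-fold (log2 fold change 1.78, SE 0.23, edgeR adjusted p = 0.00187). The difference was 1.86 in the first libraries and 1.67 in the second ones.

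ABCA3, the phospholipid transporter of lamellar bodies, was at 192 and 94.2 CPM in PC9 and at 112 and 40.5 CPM in PC9R. The lines overlapped, since the second PC9 library lay below the first PC9R library. Means were 143 ± 69.0 CPM in PC9 and 76.3 ± 50.7 CPM in PC9R (SD, n = 2), with a log2 fold change of -0.90 (SE 0.68, edgeR adjusted p = 0.999). With library number in the model ABCA3 fell 1.99-fold (log2 fold change -0.99, SE 0.21, edgeR adjusted p = 0.0137). Both library pairs had the lower value in PC9R, with differences of -0.77 and -1.22. Its size rested on single libraries when library number was not in the model: the log2 fold change was -0.31 without the first PC9 library, -1.36 without the second, -1.82 without the first PC9R library and -0.36 without the second.

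NAPSA, which encodes the aspartic protease napsin A that processes surfactant protein B, was near the lower end of what was tested, with 29 and 6 counts in PC9 and 71 and 12 in PC9R. These counts correspond to 0.909 and 0.400 CPM in PC9 and to 2.02 and 0.713 CPM in PC9R. The libraries of the lines overlapped. The log2 fold change was 1.04 (SE 0.82, edgeR adjusted p = 0.999), and it did not pass with library number in the model (1.05, SE 0.43, edgeR adjusted p = 0.12). The difference was 1.09 in the first libraries and 0.72 in the second ones.

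The surfactant protein genes gave few or no counts. SFTPB, which encodes the hydrophobic surfactant protein B, had 1 and 0 counts in PC9 and 9 and 1 counts in PC9R. The ratio of summed counts, scaled to TMM library sizes, was 9.02 (95% exact counting interval 1.28 to 392), with no test across libraries. SFTPC, which encodes surfactant protein C and is restricted to type II cells in normal lung, had 0 counts in all 4 libraries. SLC34A2, the type II cell phosphate transporter gene, likewise had 0. For the type I marker AGER, which encodes the receptor RAGE, counts were 28 and 6 in PC9 and 31 and 12 in PC9R, and most of them lay on a non-coding accession, at 25 and 4 in PC9 and 29 and 11 in PC9R. AGER was at 0.878 and 0.400 CPM in PC9 and 0.883 and 0.713 CPM in PC9R, a log2 fold change of 0.29 (SE 0.76; edgeR adjusted p = 0.999). Its direction depended on 1 library, at -0.16 without the second PC9 library.

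Levels were set against each other per kilobase of the canonical transcript for the 4 genes with 1 accession. In PC9 the mean level was 84.3 ± 11.1 CPM per kb for FOXA1, 21.7 ± 10.5 for ABCA3, 2.78 ± 0.437 for LAMP3 and 0.483 ± 0.265 for NAPSA (SD, n = 2). In that line no 2 of these genes overlapped. In PC9R the mean level was 61.5 ± 12.9 CPM per kb for FOXA1, 11.6 ± 7.68 for ABCA3, 9.47 ± 0.570 for LAMP3 and 1.01 ± 0.682 for NAPSA. There ABCA3, at 17.0 and 6.13 CPM per kb, and LAMP3, at 9.07 and 9.88 CPM per kb, did not differ beyond their spread.

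For the genes that passed with library number in the model, the 3 tested genes nearest in pattern over the 4 libraries were found by the distance between log2 CPM values centred per gene. NTN4 (0.141), FAM210B (0.157) and MTARC2 (0.160) lay nearest to LAMP3. FBXL6 (0.0667), BCORL1 (0.0708) and TNPO3 (0.0726) lay nearest to ABCA3. With 4 libraries in 2 lines, such nearness is a description only.

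H3K4me2 lay within 1 kb of an annotated start site for 7 of the 10 genes in PC9 (71.1% of 20136 coding genes) and for 9 of 10 in PC9R (75.0%). All 7 had it in both lines (70.2% of coding genes). It lay there in PC9R only for SFTPB and NAPSA (4.82% of coding genes), in PC9 only for none (0.839%), and in neither line for AGER (24.1%). A promoter DHS peak was listed for 2 of the 10 genes in PC9 (35.1% of coding genes) and for 2 in PC9R (47.5%). It was present in both lines for ABCA3 (27.8% of coding genes), in PC9 only for FOXA1 (7.31%), in PC9R only for LAMP3 (19.7%) and in neither line for the other 7 (45.1%). Each line and assay has 1 list, so no difference in peaks was tested or checked in a replicate. The PC9R lists were longer for both assays, with 59600 DHS peaks against 19648 and 117861 H3K4me2 peaks against 85246, which can set such counts. The peak scores are the authors' own and are used only as ranks within a list.

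The H3K4me2 domain over FOXA1 was among the widest in PC9. Peaks of 9218 bp (chr14:38055070-38064287), 738 bp (chr14:38064412-38065149) and 5286 bp (chr14:38065267-38070552) adjoined at its start sites, and the first was the 6th widest of 85246 peaks. All 3 ranked in the top 1.24% by score. In PC9R the only peak within 1 kb of a FOXA1 start site was 219 bp wide (chr14:38064766-38064984), at the top 28.3% by score. Within 5 kb of the canonical start site, H3K4me2 peaks covered 9760 bases in PC9 and 2464 in PC9R, a ratio of 0.252. Coverage was narrower in PC9R in general, with a median ratio of 0.623 over 14412 genes covered in both lines, and 2.29% of them had a ratio as low as that of FOXA1. The 2 PC9 DHS peaks printed above lie at this promoter. In PC9R the nearest DHS peak was 2189 bp from a start site, and 5 lay within 50 kb. The coding gene TTC6 has a start site inside 1 of the PC9 DHS peaks, so these peaks cannot be assigned to FOXA1 alone.

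**Figure D2:**
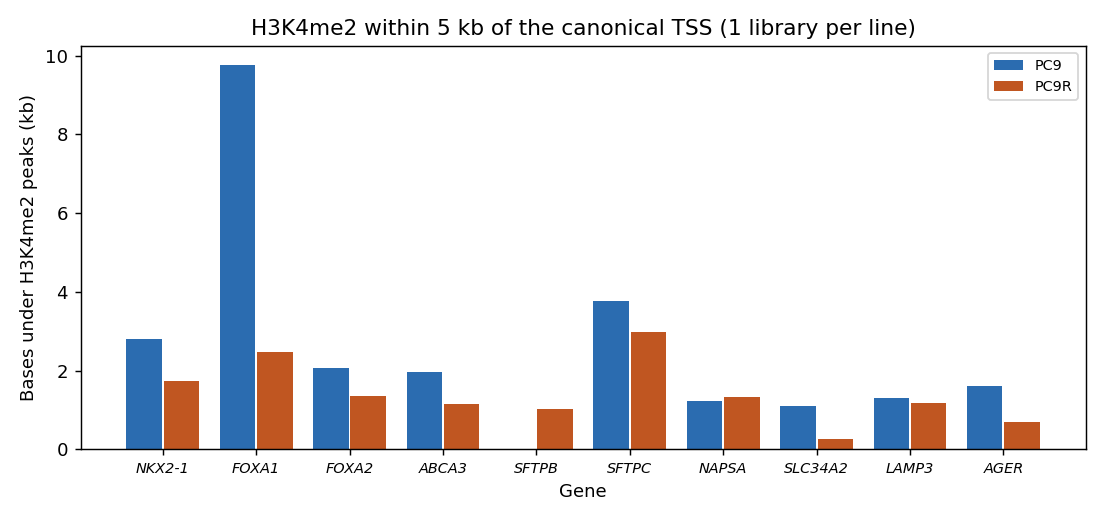
Bases under H3K4me2 peaks within 5 kb either side of the canonical start site of each gene, in kb, for PC9 and PC9R; bars are single libraries, with no error. FOXA1 has 9760 covered bases in PC9 and 2464 in PC9R, and SFTPB has 0 in PC9 and 1033 in PC9R.

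At NKX2-1, H3K4me2 covered the start sites in both lines, with 1 peak of 2295 bp in PC9 (chr14:36988123-36990417) and 2 peaks of 330 and 1086 bp in PC9R. Covered bases within 5 kb were 2795 and 1733, a ratio of 0.620 against the median of 0.623. A further peak in each line lay upstream, 3584 bp from a start site in PC9 and 3767 bp in PC9R. No DHS peak lay within 50 kb in PC9, where the nearest was 140737 bp away, and the nearest in PC9R was 13495 bp away. The PC9 peak also covers a start site of the neighbouring gene SFTA3, so the mark cannot be assigned to NKX2-1 alone. At FOXA2, H3K4me2 peaks were 2072 bp wide in PC9 and 1054 and 311 bp in PC9R, with a ratio of covered bases of 0.659. DHS peaks within 50 kb of FOXA2 numbered 1 in PC9 and 6 in PC9R. Within 1 Mb they numbered 10 and 98, and H3K4me2 peaks 38 and 112, so the excess was not limited to the gene. No other coding gene had a start site in its 50 kb window.

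The promoter of LAMP3 had H3K4me2 in both lines, 1297 bp wide in PC9 (chr3:182879638-182880934) and 1177 bp in PC9R (chr3:182879616-182880792). Covered bases had a ratio of 0.907, above that of most genes, since 86.2% had a ratio as low or lower. A DHS peak of 215 bp lay 45 bp from the start site in PC9R (chr3:182880263-182880477, in the top 26.2% by score), while the nearest in PC9 was 32678 bp away. Within 50 kb there were 6 DHS peaks in PC9R and 1 in PC9, and none of them overlapped between the lines. Within 1 Mb DHS peaks numbered 99 and 31, near the ratio of the whole lists of 3.03. The 12 other tested genes within 1 Mb had a median log2 fold change of -0.099, and 1 of them was called higher and 0 lower with library number in the model.

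ABCA3 had promoter H3K4me2 in both lines, with the main peak 1677 bp wide across the start site in PC9 (chr16:2389085-2390761) and 782 bp, 243 bp from it, in PC9R (chr16:2389574-2390355). That PC9R peak ranked 243rd of 117861 by score, and the PC9 peak 1553rd of 85246. The ratio of covered bases within 5 kb was 0.582. The promoter DHS peak of PC9, printed above, lay 144 bp from a start site, while PC9R had 2 low-ranked DHS peaks, at 492 and 685 bp. The 62 other tested genes within 1 Mb had a median log2 fold change of -0.30, with 0 called higher and 5 lower with library number in the model.

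SFTPB had no H3K4me2 peak within 10312 bp of a start site in PC9. In PC9R, 3 peaks lay within 1 kb, and the strongest was 513 bp wide over the canonical start site (chr2:85895176-85895688), in the top 16.8% by score. This peak was kept when only the upper 0.5 of the list by score was used, and when both H3K4me2 lists were set to equal numbers of peaks. No DHS peak lay within 10 kb in either line, the nearest being 10332 bp away in PC9 and 12803 bp in PC9R.

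**Figure D3:**
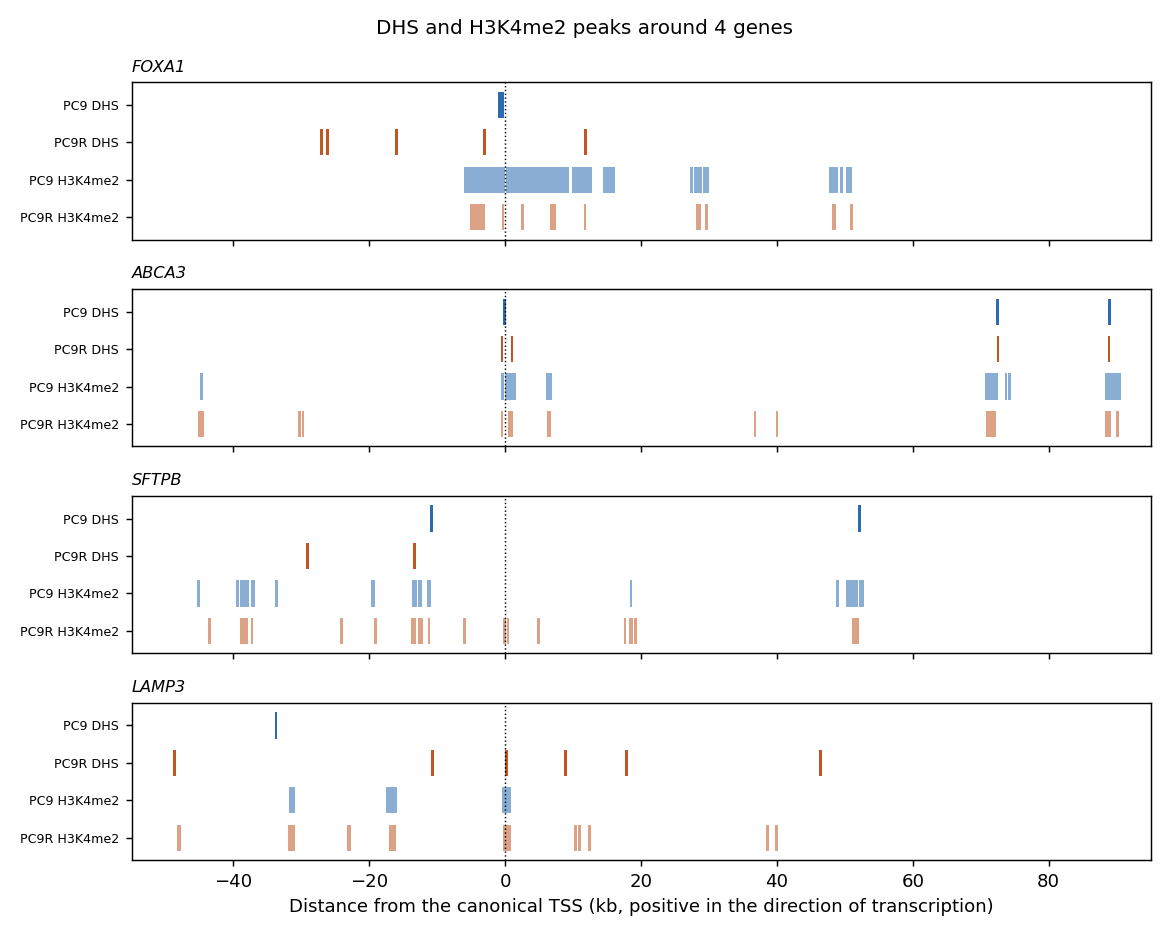
Peaks of the 4 lists around FOXA1, ABCA3, SFTPB and LAMP3, by distance from the canonical start site in kb, positive in the direction of transcription; narrow peaks are drawn wider than scale so that they can be seen. At FOXA1 in PC9, a 738 bp H3K4me2 peak covers the canonical start site, with the 9218 and 5286 bp peaks on either side. SFTPB has start site H3K4me2 in PC9R only, and LAMP3 has a start site DHS peak in PC9R only.

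The NAPSA promoter call in PC9R rested on a weak peak of 200 bp (rank 105828 of 117861 by score), and no H3K4me2 lay over the canonical NAPSA start site in either line. RefSeq also places a NAPSA start site upstream, at chr19:50872510-50872809 when its window is matched to GRCh37, and one of the strongest H3K4me2 peaks of each list lay over that window (rank 243 of 85246 in PC9 and rank 223 of 117861 in PC9R). H3K4me2 near SFTPC lay over an upstream start site, at 4339 bp from the canonical one in PC9 and 4386 bp in PC9R, where it also covered a start site of LGI3. SLC34A2 had H3K4me2 over its canonical start site in both lines, 842 bp wide in PC9 (chr4:25657035-25657876) and 274 bp in PC9R (chr4:25657305-25657578). Its ratio of covered bases was 0.249, and no DHS peak lay within 50 kb in either line. AGER had none within 1 kb, the nearest H3K4me2 peak being 1781 bp away in PC9 and 2526 bp in PC9R. In all, covered bases were at least 2-fold fewer in PC9R at FOXA1, SLC34A2 and AGER, 3 of the 9 genes covered in both lines, against 27.7% of genes. They were at least 2-fold more at none of the 9, against 2.21%.

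Within 50 kb of a start site the 10 genes together had 16 peaks of open chromatin in PC9 and 30 in PC9R, and 89 and 108 H3K4me2 peaks. The order of the lines turned for open chromatin when the lists were set to equal numbers of peaks, with 16 in PC9 and 7 in PC9R. The median gene had 1.5 and 3 DHS peaks, against 1 and 3 over all coding genes, and 9.5 and 10 H3K4me2 peaks, against 7 and 9. Of the DHS peaks, 4 of 16 in PC9 and 4 of 30 in PC9R overlapped a peak of the other line by 1 base or more, against 43.2% and 14.3% of all peaks in those lists. Of the H3K4me2 peaks, 68 of 89 and 80 of 108 did, against 70.2% and 59.1% of all. In PC9 13 of the 16 DHS peaks overlapped H3K4me2 of that line, and in PC9R 10 of 30, against 52.2% and 25.8% of all. These shares over few peaks were not tested. Many of these peaks lay at promoters of neighbours: 12 of 16 and 8 of 30 DHS peaks were within 1 kb of another coding gene's start site, including all 4 DHS peaks around NAPSA in PC9 and both in PC9R.

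The wider programme of the distal lung was followed in lists of other genes. Of 15 other type II cell genes 10 were tested, with a median log2 fold change of 0.48 against -0.0096 over all tested genes, and 0 passed the main edgeR test. With library number in the model 5 were higher and 2 lower, against 11.2% and 9.57% of all tested genes. These shares apply to each list below. SFTPD, PGC and LRRK2, among those higher, passed the filter on low counts through their PC9R libraries. A gene so low in PC9 could be tested only if it was higher in PC9R, so the filter partly sets the median and the number higher. LPCAT1, an acyltransferase of surfactant lipid synthesis, was at 772 and 772 CPM in PC9 and 230 and 252 CPM in PC9R, and fell with library number in the model (log2 fold change -1.68, SE 0.18, edgeR adjusted p = 0.000774). SFTPD, the collectin surfactant protein D gene, had 6 and 0 counts in PC9 and 57 and 9 in PC9R, and rose in that model (edgeR adjusted p = 0.0117). PGC, which encodes the protease progastricsin and has 2 accessions, had 11 and 0 counts in PC9 and 87 and 7 in PC9R (edgeR adjusted p = 0.0113 in that model). LRRK2, a kinase gene expressed in type II cells, had 0 counts in PC9 and 33 and 27 in PC9R, at least 18.05-fold higher by a floor of 3 counts over the group (edgeR adjusted p = 0.0906, 0.0039 with library number in the model, and 0.00523 with DESeq2). By edgeR without library number, SFTPD was at 7.62 and PGC at 8.04 log2 without the first PC9 library, which leaves PC9 at 0 counts for both, so these fitted values are no estimate of size. Of 8 type I cell genes 4 were tested, with a median of -0.60, and only RTKN2 passed, lower, with library number in the model. It was at 68.6 and 176 CPM in PC9 and 16.0 and 62.8 CPM in PC9R (adjusted p from edgeR = 0.00178), and its log2 fold change of -1.63 without library number went to -0.81 without the second PC9 library, -0.96 without the first PC9R library and -2.95 without the second. The membrane protein gene EMP2 was at 324 and 350 CPM in PC9 and 339 and 284 CPM in PC9R and did not pass.

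Airway genes moved in both directions. Of 10 genes 5 were tested, and MUC5AC had no row under that name in the count table. None passed the main edgeR test. With library number in the model 2 were higher and 1 lower, against 11.2% and 9.57% of all tested genes. BPIFB1, which encodes a secreted airway defence protein, was at 3.64 and 2.40 CPM in PC9 and at 341 and 39.7 CPM in PC9R, a log2 fold change of 5.97 (SE 1.11; edgeR adjusted p = 0.0792, and 0.000629 with library number in the model). MUC5B, a gel-forming airway mucin gene, was at 496 and 133 CPM in PC9 and at 19.0 and 1.37 CPM in PC9R, a log2 fold change of -4.94 (SE 1.26; edgeR adjusted p = 0.197, and 0.000196 with library number in the model). SCGB1A1, the club cell secretoglobin gene, had 2 and 3 counts in PC9 and 20 and 14 in PC9R (edgeR adjusted p = 0.033 with library number in the model). It likewise passed the filter on low counts through PC9R. DESeq2 also called BPIFB1 (adjusted p = 1.19e-09) and MUC5B (2.39e-05), both in the same direction. Their sizes varied with the library left out: BPIFB1 was at 3.71 without the first PC9R library, and MUC5B was at -7.84 without that library.

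Of 14 other transcription factor genes of lung epithelium 9 were tested, with a median log2 fold change of 0.26, and 0 passed the main edgeR test. With library number in the model 3 were higher and 1 lower, against 11.2% and 9.57% of all tested genes. ID2, an inhibitor of basic helix-loop-helix factors that marks the distal lung bud, was at 0.596 and 0.334 CPM in PC9 and at 6.69 and 3.57 CPM in PC9R, a log2 fold change of 3.42 (SE 0.76; edgeR adjusted p = 0.144, 0.000777 with library number in the model, and 0.00268 with DESeq2). GATA6, an endoderm factor gene, was at 14.5 and 11.5 CPM in PC9 and at 28.5 and 29.8 CPM in PC9R, and rose in that model (edgeR adjusted p = 0.0115). ELF3, an epithelial ETS factor gene with 2 accessions, was at 1.13 and 0.534 CPM in PC9 and at 3.13 and 1.78 CPM in PC9R (adjusted p from edgeR = 0.022 in that model). SOX9, a factor of distal lung progenitors, was at 156 and 125 CPM in PC9 and at 90.2 and 86.3 CPM in PC9R, and fell in that model (log2 fold change -0.66, SE 0.20, edgeR adjusted p = 0.0463). Of 7 genes linked to NKX2-1 in lung adenocarcinoma 3 were tested, and ROR1, a receptor gene with 2 accessions, was lower with library number in the model. It was at 77.2 and 148 CPM in PC9 and 37.3 and 103 CPM in PC9R (adjusted p from edgeR = 0.0357), and its log2 fold change of -0.69 without library number ranged from -1.61 to -0.13 as 1 library was left out, the latter without the first PC9R library. The tight junction gene CLDN1 was at 100.2 and 149 CPM in PC9 and 142 and 98.3 CPM in PC9R.

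**Figure D4:**
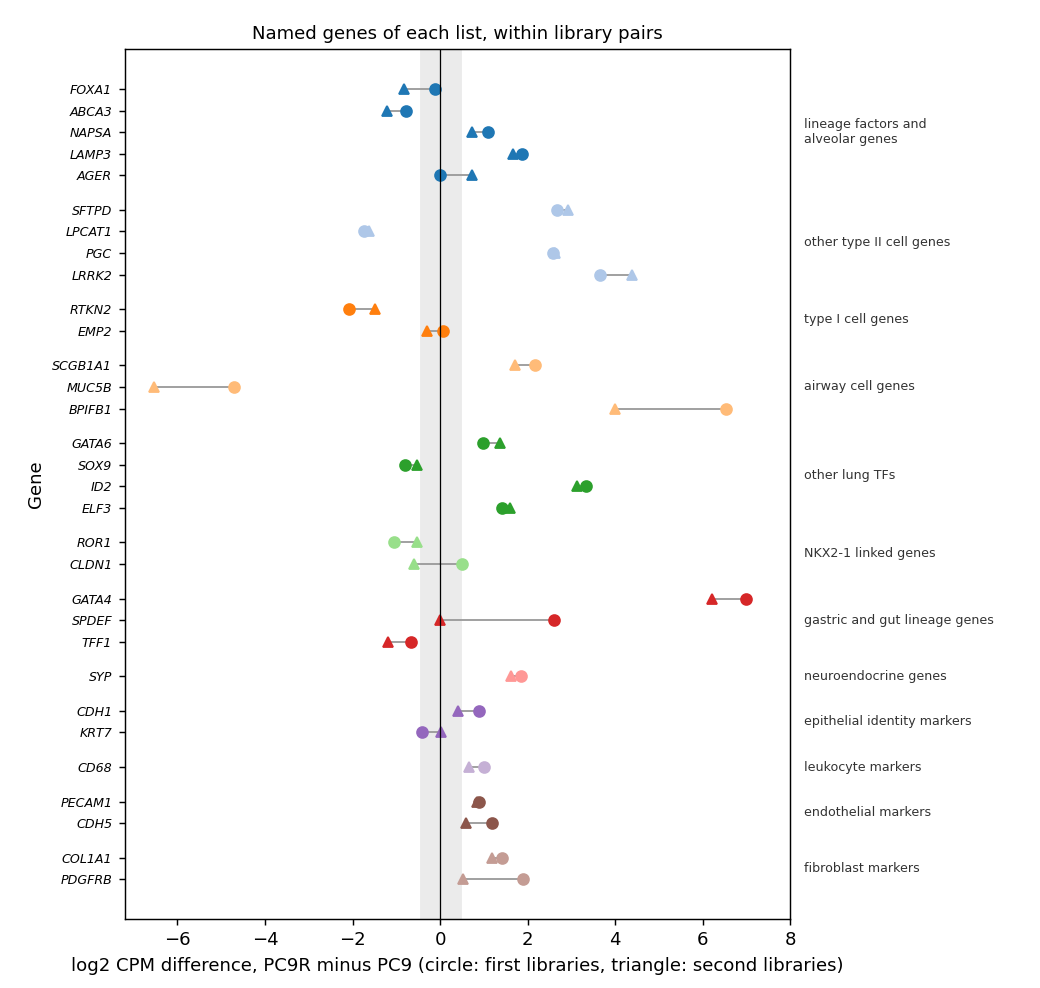
Log2 CPM difference, PC9R minus PC9, within the first libraries (circles) and within the second libraries (triangles) for the named genes of each list that were tested; the grey band spans the middle of all 12660 tested genes, from the lower quartile of -0.43 to the upper quartile of 0.47. LAMP3 lies at 1.86 and 1.67, and ABCA3 at -0.77 and -1.22.

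The cell type was checked against markers. All 6 epithelial markers were tested and together made up 10552 to 24186 CPM in PC9 and 10756 to 18812 CPM in PC9R. Only CDH1 passed, as higher, with library number in the model (362 and 387 CPM in PC9, 666 and 517 CPM in PC9R, adjusted p from edgeR = 0.0474). KRT7, a simple epithelial keratin gene, was at 12192 and 5288 CPM in PC9 and 9115 and 5371 CPM in PC9R. Of 4 leukocyte markers, summed at 8.66 to 8.68 CPM in PC9 and 13.7 to 17.5 CPM in PC9R, 1 was tested. This was CD68, which has 2 accessions and was higher with library number in the model. PTPRC and CD14, which have 4 accessions each, had at most 11 counts in a library. Of 4 endothelial markers, summed at 12.7 to 22.4 and 20.1 to 46.8 CPM, 3 were tested and CDH5 was higher in that model, while VWF, named after its values were seen, had a log2 fold change of -0.25 and PECAM1 of 0.88, neither of which passed, and KDR had at most 1 count in a library. Of 5 fibroblast markers, summed at 6.34 to 24.4 and 14.1 to 65.2 CPM, 2 were tested and COL1A1 was higher in that model. PDGFRB had at most 32 counts in a library, LUM at most 1, and DCN, which has 6 accessions, had 0. Low counts of genes with several accessions are again not read as low expression. The summed levels of these 3 lists were higher in PC9R in both library pairs, but each sum rested mainly on 1 gene. CD68 made up nearly all of the leukocyte sum, at 8.499 and 8.475 CPM in PC9 and 17.1 and 13.5 CPM in PC9R. COL1A1 made up nearly all of the fibroblast sum, at 24.1 and 6.01 CPM in PC9 and 64.2 and 13.7 CPM in PC9R. CDH5 made up most of the endothelial sum. The sums therefore do not describe the lists as a whole. A part of other cell types in the LAMP3 difference was not tested. In bulk RNA, more cells that express a gene and more RNA per cell cannot be told apart.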

How the data were processed

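The RNA files hold raw counts per RefSeq accession, as deposited. The submitters' processing notes list MACS2, TopHat, HTSeq, DESeq and hg19 without saying what each did. Counting mode, strand setting, peak threshold and control libraries: not given in the sources used here. Deposited peak lists hold a score per peak, whose scale is not stated. Counts of 42811 accessions were summed per gene by the RefSeq gene table of GRCh38.p14, used for names (41552 matched; the other 1259 stayed single rows). Start sites came from GENCODE 44 lifted to GRCh37.

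Genes were tested two-sided over all rows with edgeR 4.0.16 in R 4.3.3 (TMM, filterByExpr, quasi-likelihood F test, Benjamini-Hochberg adjustment), with no block. SE was derived from the log2 fold change and F. Within-pair differences use log2 CPM with a prior count of 2. Library number is no stated batch, so the fit with it is an alternative. DESeq2 1.42.0, limma-voom (limma 3.58.1), other scalings and filters, single accessions, left-out libraries and other peak rules were further alternatives. A promoter peak lies within 1 kb of any annotated start site. Scripts were tested on simulated data.

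All 10 genes are named. From each other list up to 4 genes called with or without library number are named, largest fold change first, filled to 2 by mean CPM. A neuroendocrine gene is not reported here. The genes, lists and tests were chosen with earlier results of these data known.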

Additional observations from a re-analysis of the deposited data

How the results depend on the processing

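Against 32 genes called (24 higher, 8 lower), edgeR called 0 with upper quartile scaling (919 had an unadjusted p under 0.05), 440 when unfiltered (312 higher, 128 lower), 377 with DESeq2 (258 and 119). Limma-voom called 73 (54 and 19). Between 83 and 254 genes passed when a library was left out, where the lone library is taken to vary as the other line does. RLE scaling, the stricter filter and single accessions stayed within 1.5 times. The cause was not tested.

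With the replicate block 2631 genes passed (1420 higher, 1211 lower). The libraries share only a number in the order of the samples. The block changed no direction of the 31 named genes that were tested, and 22 of them passed with it that had not passed without it. Genes outside the fixed list were mostly named because a fit with or without the block called them. The number 22 is therefore set in part by that choice and does not measure the effect of the block. Of all tested genes, 20.8% passed with the block.

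LAMP3 was at 1.61 to 1.91 and ABCA3 at -1.82 to -0.31 over all alternatives, with edgeR adjusted p from 0.00187 and 0.0137, both in the block fit, up to 0.999923. FOXA1 stayed between -0.68 and -0.27, and NAPSA between 0.087 and 1.77. Leaving out 1 library turned the sign of AGER (-0.16 to 0.98), CLDN1 (-0.34 to 0.23), TFF1 (-2.52 to 0.68), KRT7 (-0.78 to 0.44) and COL1A1 (-0.14 to 2.69). Upper quartile scaling turned that of CLDN1 (0.0064). SPDEF also turned sign with a library left out (-6.03 to 8.70). Both of these ends come from fits that leave 1 line at 0 counts for SPDEF, so they are no estimate of size.

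Of the 10 genes, 2 had a promoter DHS peak in PC9R, but 1 did with the upper 0.5 of the list by score (LAMP3), with equal numbers of peaks (LAMP3) and with the 5′-most start site only (ABCA3). Peaks within 50 kb numbered 16, 30, 89 and 108 in PC9 DHS, PC9R DHS, PC9 H3K4me2 and PC9R H3K4me2. Within 25 kb they numbered 10, 19, 52 and 65. Within 100 kb PC9R DHS had 55, PC9 H3K4me2 163 and PC9R H3K4me2 198. With the upper 0.5 by score PC9 DHS had 10, PC9R DHS 14 and PC9 H3K4me2 58. With equal numbers of peaks PC9R DHS had 7 against 16 in PC9, so the order of the lines turned. With start sites widened to 2500 bp NAPSA had H3K4me2 in both lines, and FOXA1 had a DHS peak in both.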

Other observations

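Genes of other endodermal and neuroendocrine lineages, which can appear in lung tumours with low NKX2-1, were followed as well. Of 14 gastric and gut genes 6 had at most 3 counts over the 4 libraries and 4 were tested, while HNF4A (7 accessions) and PDX1 had 0 counts in all 4 libraries. GATA4, an endoderm and heart factor gene, passed the main edgeR test, but not with upper quartile scaling. It had 0 counts in both PC9 libraries and 360 and 100 counts in PC9R, at least 138-fold higher by a floor of 3 counts over the group (edgeR adjusted p = 0.0388, and 0.000217 with library number in the model). GATA4 passed the filter on low counts through PC9R alone, so it could be called only as higher there. SPDEF, a goblet cell factor gene, had 22 and 161 counts in the first libraries of PC9 and PC9R and 0 in the second library of each, so it was measured in 1 library per line only. TFF1, a trefoil peptide gene, was at 3.73 and 22.6 CPM in PC9 and at 2.31 and 9.87 CPM in PC9R and was lower with library number in the model (edgeR adjusted p = 0.0379). Of 5 neuroendocrine genes 1 was tested, and NEUROD1 and INSM1 had 0 counts in every library. SYP, the synaptophysin gene, was at 1.16 and 1.00 CPM in PC9 and at 4.41 and 3.27 CPM in PC9R, and rose with library number in the model (edgeR adjusted p = 0.00834). CHGA, the chromogranin A gene, had 2 and 3 counts in PC9 and 13 and 8 in PC9R.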
